A study of Mus musculus with 8 samples.

Results

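Heat shock chaperones are proteins that hold, refold or hand on other proteins. A set of 10 heat shock genes was followed in mouse liver: Hsf1, Hspb1, Hspb8, Hspd1, Hspe1, Hspa8, Dnajb1, Dnaja1, Hsph1 and Hsp90aa1. The genes were found by their symbol in the array annotation, and each was read by its single-gene probe set with the highest mean. Coordinates given below with a gene are those of the annotated gene. The locus that its probe set reads is not recorded. Of the 10 genes 9 were measured, among 19935 genes in all. No probe set names Hsf1 in the annotation used here, and Hsf1 is not analysed here.

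The NS-DADm animals carry mutations in the deacetylase activating domain (DAD) of both nuclear receptor corepressors, NCOR and SMRT. This domain binds and activates the histone deacetylase HDAC3, and the design asks which liver genes differ between these animals and WT animals. Liver RNA of 4 NS-DADm and 4 WT samples was measured, each on its own Mouse Gene 1.0 ST array (Affymetrix). Both groups were male C57Bl/6 mice aged 10 to 12 weeks, kept on 12 h of light and 12 h of dark with normal chow and sampled at ZT10, that is 10 h after lights on. The growth label reads WT for all 8 samples, so the genotype was taken from the genotype label and the title. The labels do not say whether the mutations are in every tissue, nor whether each array is a separate animal. A p-value here therefore covers only how these 8 samples scatter, and that scatter may be technical. The transcripts of the mutated corepressors are not analysed here. All levels below are log2 intensities as deposited, and a difference is the NS-DADm mean minus the WT mean on that scale.

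In the heat shock response, unfolded protein releases the transcription factor HSF1 from chaperones, and HSF1 then binds heat shock elements in the promoters of chaperone genes. HSP70 proteins bind exposed stretches of unfolded protein, J-domain proteins bring them substrates, HSP110 proteins exchange their nucleotide, and HSP90 acts late on signalling proteins such as steroid receptors. Small heat shock proteins hold unfolded protein without ATP, and in mitochondria the HSP60 and HSP10 chaperonin encloses it in a chamber. In liver many of these genes also follow the time of day and feeding.

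No heat shock gene passed the test across all genes (limma, Benjamini-Hochberg adjusted p under 0.05), whereas 0.271% of all genes did. The differences nearest to the threshold were those of Hspb1, at -0.65, of Hspb8, at 0.34, and of Hspd1, at 0.22. These 3 of the 9 genes had an unadjusted p under 0.05, against 9.33% of all genes. That count was 6 without NS-DADm array 4, and 2 without NS-DADm array 1, NS-DADm array 2 or WT array 1. The share of all genes at an unadjusted p under 0.05 was not counted in these settings. At an adjusted p under 0.05 in limma it was 0.632% of all genes without NS-DADm array 4. It was 0.206%, 0.156% and 0.181% without NS-DADm array 1, NS-DADm array 2 and WT array 1. The groups overlapped in every one of the 9 genes, and 5.63% of all genes had groups that did not overlap. Of the 9 differences 7 were above 0 and 2 below 0, with a median of 0.14, while 44.3% of all genes were above 0 and the median of all genes was -0.01. The median of the 9 was 0.23 without WT array 2, 0.10 without WT array 1 and 0.12 without NS-DADm array 2. The plot of the values by array shows each of the 9 genes on its own scale.

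**Figure D1:**
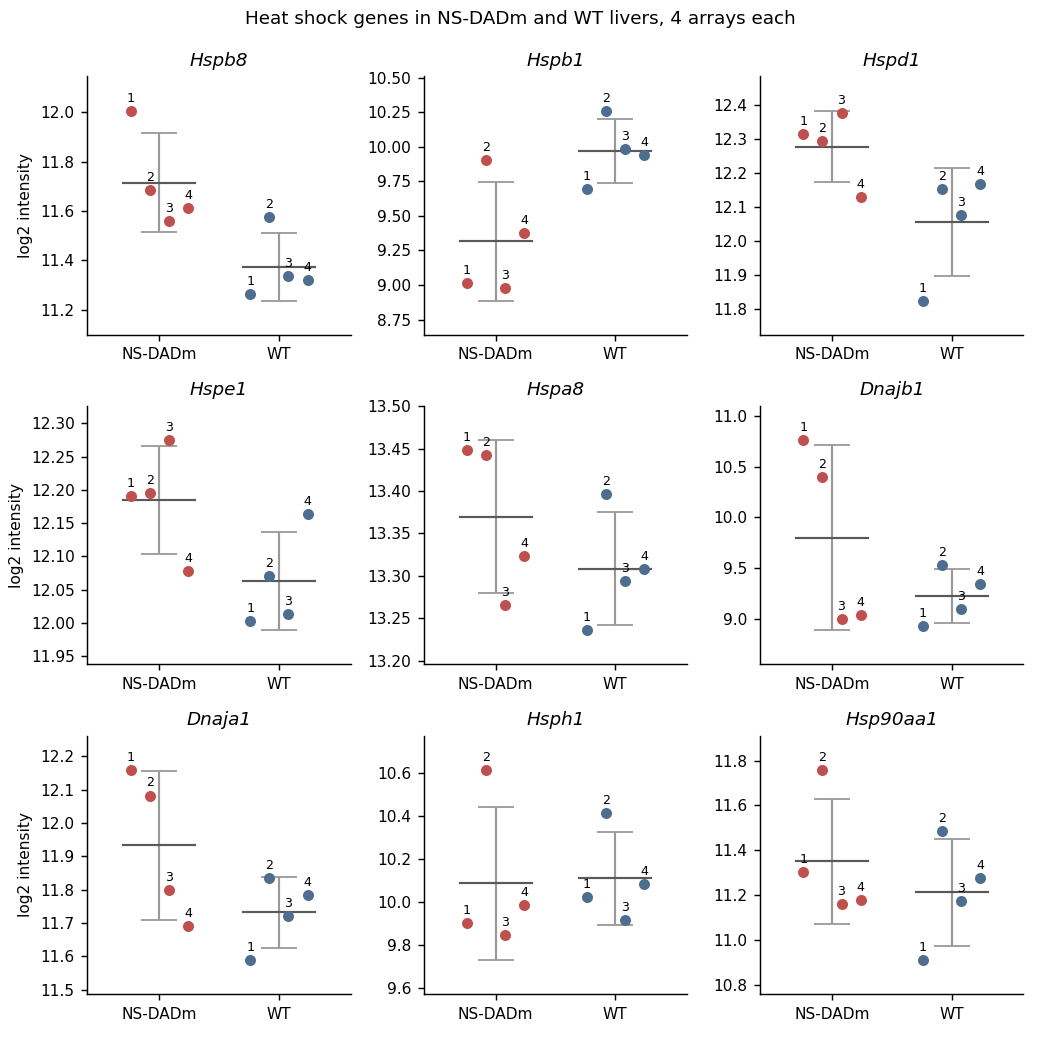
Log2 intensity of the 9 measured heat shock genes (1 panel each, with its own vertical scale), NS-DADm arrays left and WT arrays right, numbered by replicate, with the mean (long bar) and SD (whiskers). Dnajb1 shows 2 NS-DADm arrays at 10.76 and 10.40 and the others near the WT arrays, and in all 9 panels the groups overlap.

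The 300-base promoter windows of 3 genes are shown because that of Hspe1 overlaps 1 of the 2 Hspd1 windows by 285 bases and because Hspb1 and Hspb8 had differences of opposite sign. They are RefSeq sequences on GRCm38.p6, 250 bases before to 50 bases after the transcript start, in lower case with heat shock elements in capitals. An element was searched as 2 facing units, GAANNTTC or TTCNNGAA, each of which reads the same on both strands, so that neighbouring matches can share a 3-letter unit.
Hspe1, chr1:55087898-55088197, plus strand: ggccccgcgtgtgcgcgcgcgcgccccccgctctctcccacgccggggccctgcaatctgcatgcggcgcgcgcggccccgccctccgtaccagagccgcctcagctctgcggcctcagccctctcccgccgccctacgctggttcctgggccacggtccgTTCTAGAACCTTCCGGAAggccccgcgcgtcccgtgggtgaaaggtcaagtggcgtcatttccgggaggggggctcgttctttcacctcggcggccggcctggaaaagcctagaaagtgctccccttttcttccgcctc
Hspb1, chr5:135887669-135887968, plus strand: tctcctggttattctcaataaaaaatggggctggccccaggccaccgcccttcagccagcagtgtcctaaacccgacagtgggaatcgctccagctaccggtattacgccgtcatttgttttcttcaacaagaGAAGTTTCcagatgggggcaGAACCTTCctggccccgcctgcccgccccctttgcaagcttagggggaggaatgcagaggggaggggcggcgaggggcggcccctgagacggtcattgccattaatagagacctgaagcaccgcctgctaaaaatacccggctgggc
Hspb8, chr5:116422815-116423114, minus strand: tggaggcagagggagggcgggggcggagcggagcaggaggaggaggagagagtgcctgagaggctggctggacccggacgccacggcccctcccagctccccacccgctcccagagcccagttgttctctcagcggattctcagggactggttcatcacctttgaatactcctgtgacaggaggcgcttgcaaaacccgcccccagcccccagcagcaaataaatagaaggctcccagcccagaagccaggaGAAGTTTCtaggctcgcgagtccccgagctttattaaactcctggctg
With the start base counted as 0, the Hspe1 window held matches at -89, -84 and -79, which run together as 1 longer element. The Hspb1 window held matches at -117 and -97, and the Hspb8 window held 1 match at 2. Such a match was present in 15.1% of all 32851 windows, and a longer element of at least 3 units in 0.603% of them.

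Of the 9 measured genes 7 had windows, 12 in all because some have several starts. A match was in 7 of the 12 windows, from 6 of the 7 genes. A longer element was in 4 of the 12 windows, those of Hspd1, Hspe1 and Hsph1. These windows are not independent. The Hspd1 window with the element overlaps that of Hspe1, and both hold the same letters. The other Hsph1 window, chr5:149636266-149636565, overlaps the one described next and holds the same matches. The counts of windows therefore exceed those of separate elements. In the Hsph1 window chr5:149636287-149636586 on the minus strand the matches began at -33, 36 and 41. In the Dnaja1 window chr4:40722218-40722517 on the plus strand the match began at -124, and the other 2 Dnaja1 windows held none. Neither of the 2 Dnajb1 windows held a match, which says only that these letters are not in those windows. A match is a description of the letters and not a bound site.

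Hspb1 (HSP25 in mouse, probe set 10408928, chr5:135887919-135889563) encodes a small heat shock protein that holds unfolded protein and binds actin filaments. Its level was 9.02, 9.90, 8.98 and 9.38 on NS-DADm arrays 1 to 4, and 9.70, 10.26, 9.99 and 9.94 on WT arrays 1 to 4. The NS-DADm arrays 1, 3 and 4 lay below every WT array, and NS-DADm array 2 lay inside the WT range. The mean was 9.32 ± 0.43 in NS-DADm livers and 9.97 ± 0.23 in WT livers (SD, n = 4 each), a difference of -0.65 with an SE of 0.19. This is a fold of 0.636, with a 95% interval of 0.476 to 0.849, and its adjusted p in limma was 0.273. The pooled SD of 0.345 was larger than that of 98.9% of genes. Another probe set named Hspb1 gave the same difference of -0.65, with an adjusted p of 0.302.

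Hspb8 (HSP22, probe set 10533050, chr5:116408491-116422864) is a small heat shock protein that works with the cochaperone BAG3 to send misfolded protein to autophagy. Its level was 12.01, 11.68, 11.56 and 11.61 on NS-DADm arrays 1 to 4, and 11.27, 11.57, 11.34 and 11.32 on the WT arrays. NS-DADm array 1 was the highest of all, and only NS-DADm array 3 lay within the WT range, whose upper end was WT array 2. The mean was 11.71 ± 0.20 in NS-DADm livers and 11.37 ± 0.14 in WT livers (SD, n = 4 each), a difference of 0.34 with an SE of 0.10. The fold was 1.27 with a 95% interval of 1.08 to 1.48, and the adjusted p in limma was 0.289. Bag3, the partner of Hspb8, had 9.69, 10.09, 9.32 and 9.51 on NS-DADm arrays and 9.52, 9.88, 9.31 and 9.47 on WT arrays. Its difference was 0.11 with an adjusted p of 0.942, and array 2 was the highest in both groups.

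Hspb1 and Hspb8 had a Pearson r of -0.52 over the 8 arrays (exact permutation p = 0.188, adjusted over the 6 pairs of genes compared 0.188). Their Spearman rho was -0.286. With each group's mean subtracted r was 0.09, so the negative sign was that of the group means.

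Hspd1 (HSP60, probe set 10375240, chr1:55077833-55088243) forms the mitochondrial chaperonin chamber and Hspe1 (HSP10, probe set 10455588, chr1:55088148-55091317) its lid. They are neighbours transcribed in opposite directions from a common promoter, and their annotated spans share 96 bases. The Hspd1 window chr1:55087883-55088182 on the minus strand overlaps the printed Hspe1 window by 285 bases and holds the same element, at -144, -139 and -134 from the Hspd1 start. The other Hspd1 window, chr1:55088194-55088493 on the minus strand, shares 4 bases with the Hspe1 window and holds no match.

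Hspd1 had 12.31, 12.29, 12.37 and 12.13 on NS-DADm arrays 1 to 4, and 11.82, 12.15, 12.08 and 12.17 on WT arrays. The NS-DADm arrays 1, 2 and 3 lay above every WT array, NS-DADm array 4 lay within the WT range, and WT array 1 was the lowest. The mean was 12.28 ± 0.11 in NS-DADm livers and 12.05 ± 0.16 in WT livers (SD, n = 4 each), a difference of 0.22 with an SE of 0.085 and a limma adjusted p of 0.430. Without WT array 1 the difference was 0.15. A second Hspd1 probe set gave 0.28, with an adjusted p of 0.466.

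Hspe1 had 12.19, 12.20, 12.27 and 12.08 on NS-DADm arrays, and 12.00, 12.07, 12.01 and 12.16 on WT arrays. As in Hspd1, NS-DADm arrays 1, 2 and 3 were above every WT array and NS-DADm array 4 was not. The mean was 12.18 ± 0.08 in NS-DADm livers and 12.06 ± 0.07 in WT livers (SD, n = 4 each). The difference of 0.12 had an SE of 0.061 and an adjusted p of 0.596 in limma.

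Across the 8 arrays Hspd1 and Hspe1 followed each other, with r = 0.89 (exact permutation p = 0.00248, adjusted over 6 pairs 0.00496) and rho = 0.952 (exact p = 0.00114, adjusted 0.0067). Without NS-DADm array 3 and WT array 1, the arrays farthest from the median of Hspd1, r was 0.90. With group means subtracted r was 0.80 (exact permutation within groups p = 0.0313, adjusted 0.0495). The 2 genes share these arrays, so a technical factor of an array would move both, and its part was not tested.

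Hspa8 (HSC70, probe set 10528021, chr9:40801276-40805202) encodes the constitutive cytosolic HSP70 of most cells. It had 13.45, 13.44, 13.27 and 13.32 on NS-DADm arrays, and 13.24, 13.40, 13.29 and 13.31 on WT arrays. NS-DADm arrays 1 and 2 were the highest and WT array 1 the lowest, with the others interleaved. The difference was 0.06 with an SE of 0.062, a 95% interval of -0.08 to 0.20 and a limma adjusted p of 0.887. It was 0.035 without NS-DADm array 1, 0.037 without NS-DADm array 2, 0.037 without WT array 1 and 0.096 without NS-DADm array 3. The other 2 probe sets named Hspa8 gave 0.04 and 0.07.

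Dnajb1 (HSP40, probe set 10573198, chr8:83608175-83612653) is a J-domain protein that delivers unfolded protein to HSP70 and is strongly induced by heat shock. Its level was 10.76, 10.40, 9.002 and 9.04 on NS-DADm arrays 1 to 4, and 8.92, 9.53, 9.10 and 9.35 on WT arrays. NS-DADm arrays 1 and 2 stood above every WT array, and NS-DADm arrays 3 and 4 lay inside the WT range. The NS-DADm arrays spanned 1.76 and the WT arrays 0.61. The mean was 9.80 ± 0.91 in NS-DADm livers and 9.23 ± 0.27 in WT livers (SD, n = 4 each), and the pooled SD of 0.673 was larger than that of 99.9% of genes. The difference of 0.57 had an SE of 0.36, a fold of 1.49 with a 95% interval of 0.857 to 2.59, and an adjusted p of 0.710 in limma. Without NS-DADm array 1 it was 0.25, and without NS-DADm array 2 it was 0.38.

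Dnaja1 (probe set 10521587, chr4:40722468-40734965), another J-domain partner of HSP70, had 12.16, 12.08, 11.80 and 11.69 on NS-DADm arrays, and 11.59, 11.84, 11.72 and 11.78 on WT arrays. Its order of the NS-DADm arrays resembled that of Dnajb1, with arrays 1 and 2 above every WT array and the others within the WT range. The difference was 0.20 with an SE of 0.10, a 95% interval of -0.03 to 0.43 and a limma adjusted p of 0.604. Without NS-DADm array 1 it was 0.13. A second Dnaja1 probe set gave 0.38, with an adjusted p of 0.553.

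Hsph1 (HSP105, probe set 10535904, chr5:149616843-149636498), an HSP110 protein that exchanges the nucleotide of HSP70, had 9.91, 10.62, 9.85 and 9.99 on NS-DADm arrays, and 10.02, 10.42, 9.92 and 10.09 on WT arrays. Array 2 was the highest within each group, and NS-DADm array 1, the highest for Dnajb1, was below all 4 WT arrays here. The difference was -0.02 with an SE of 0.16, a 95% interval of -0.38 to 0.34 and an adjusted p of 0.995 in limma. Its sign turned when NS-DADm array 1, 3 or 4 or WT array 2 was left out, and it was -0.20 without NS-DADm array 2.

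**Figure D2:**
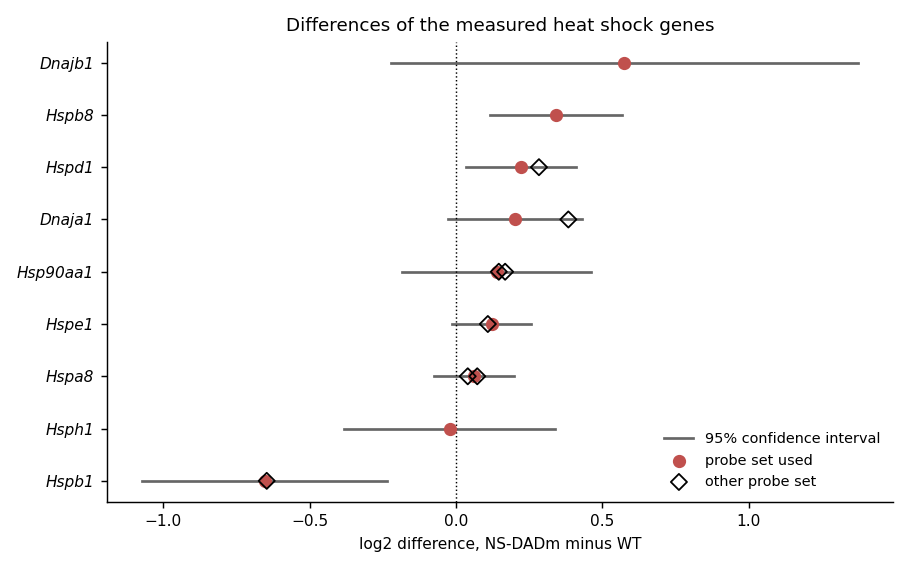
Log2 difference, NS-DADm minus WT, of the 9 measured heat shock genes with the 95% confidence interval from limma (4 arrays a group); filled circles are the probe sets used and open diamonds the other probe sets of the same gene. The intervals of Hspb1, Hspb8 and Hspd1 lie to 1 side of 0, and that of Dnajb1 is the widest.

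Hsp90aa1 (HSP90 alpha, probe set 10378848, chr12:110691036-110696395), the stress-inducible cytosolic HSP90, had 11.30, 11.76, 11.16 and 11.18 on NS-DADm arrays, and 10.91, 11.49, 11.17 and 11.28 on WT arrays. Array 2 was again the highest within each group, and WT array 1 was the lowest of all. The difference was 0.14 with an SE of 0.15, a 95% interval of -0.18 to 0.46 and a limma adjusted p of 0.894. It was 0.0021 without NS-DADm array 2, 0.038 without WT array 1 and 0.23 without WT array 2. The other 2 probe sets named Hsp90aa1 gave 0.15 and 0.17.

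Hspb1, Hspd1, Hspe1, Hspa8, Dnaja1 and Hsp90aa1 each had more than 1 probe set of their name. These genes have close copies in the genome, and which locus each set reads is not recorded in the labels or the annotation, so their values are open to signal from a copy. The sign of the difference was the same in all the probe sets of each gene.

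Hspa8 and Dnajb1 had r = 0.92 over the 8 arrays (exact permutation p = 0.000446, adjusted over 6 pairs 0.00268) and rho = 0.929. Without NS-DADm arrays 1 and 2, r was 0.87. Hspa8 and Dnaja1 had r = 0.90 (exact permutation p = 0.00218, adjusted 0.00496) and rho = 0.786, whose adjusted exact p was 0.0559. With array medians subtracted that rho was 0.976, with an adjusted exact p of 0.00238. The same rho was 0.762 with quantile normalization and 0.833 with group means subtracted, and neither passed (adjusted exact p = 0.0735 and 0.0729). Without NS-DADm arrays 1 and 2, their r was 0.66. With each group's mean subtracted, r was 0.90 for Hspa8 with Dnajb1 and 0.88 for Hspa8 with Dnaja1 (exact permutation within groups, p = 0.00868 and 0.0330, both 0.0495 after adjustment). Leaving out NS-DADm arrays 1 and 2 thus lowered r more for Hspa8 with Dnaja1 than for Hspa8 with Dnajb1. With group means subtracted, NS-DADm array 3 and WT array 2 were the arrays left out. Their absence gave r = 0.93 for Dnaja1 and 0.92 for Dnajb1. Whether the relations of Hspa8 to the 2 genes differ was not tested.

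Hsp90aa1 and Hsph1 had r = 0.83 (exact permutation p = 0.0119, adjusted 0.0178), whereas rho was 0.595 (exact p = 0.132, adjusted 0.198). Without NS-DADm array 2 and WT array 1, the arrays farthest from the median of Hsp90aa1, r was 0.89. With group means subtracted r was 0.88, and when array 2 of both groups was then left out it was 0.18. The relation after that subtraction therefore rests on array 2 of both groups. Hspa8 and Hsph1 had r = 0.57 and rho = 0.286, and neither passed (exact permutation p for r = 0.14, adjusted 0.168). With array medians subtracted, rho for Hsp90aa1 and Hsph1 was 0.786 and passed (adjusted exact p = 0.0419). With quantile normalization this rho was 0.476 and with group means subtracted 0.667, and neither passed (adjusted exact p = 0.365 and 0.130). The scatter plots of the pairs show array 2 of both groups at the top right of the Hsp90aa1 and Hsph1 panel.

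**Figure D3:**
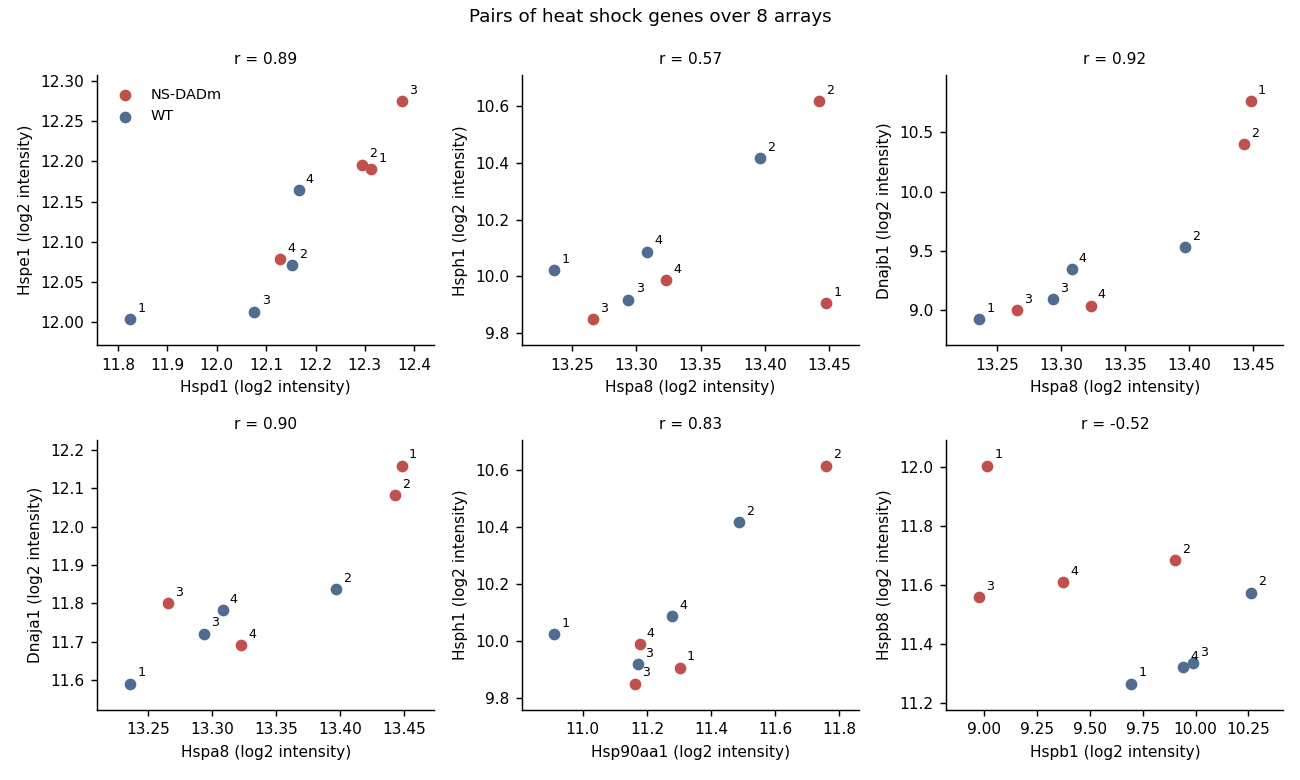
Log2 intensities of 6 pairs of heat shock genes, 1 point an array (NS-DADm and WT in different colours, numbered by replicate), with Pearson r over the 8 arrays above each panel. Hspd1 and Hspe1 (r = 0.89) and Hspa8 and Dnajb1 (r = 0.92) lie close to a line, and Hspb1 and Hspb8 (r = -0.52) do not.

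Each gene was centred on its own mean over the 8 arrays, and the 9 genes were averaged on each array. The averages were 0.17, 0.31, -0.14 and -0.13 on NS-DADm arrays 1 to 4, and -0.23, 0.13, -0.10 and -0.02 on WT arrays 1 to 4. The genes were not scaled to equal spread, so genes with a wide spread weigh more in these averages. Dnajb1 had the largest pooled SD of the 9 genes, 0.673, and lay farthest above its own mean on NS-DADm arrays 1 and 2. Hspb1 and Hsph1 were below their means on NS-DADm array 1. Averages without Dnajb1 were not computed. NS-DADm array 2 had 9 of the 9 genes above their own mean and NS-DADm array 1 had 7, against 3 and 1 on NS-DADm arrays 3 and 4. Among WT arrays, array 2 had 7 genes above their mean and array 1 had 1. WT array 1 was the lowest of the 8 arrays in 7 of the 9 genes, and NS-DADm array 1 was the highest in 4. Over all probe sets WT array 1 had the highest median (7.50) and the smallest SD (2.02) of the 8 arrays, and WT array 4 the largest SD (2.09). All 9 genes had means above the median of all genes. The part of such array-wide differences in this pattern was not tested. Hspb1 was below its mean on NS-DADm arrays 1, 3 and 4 and above it on WT arrays 1 to 4.

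**Figure D4:**
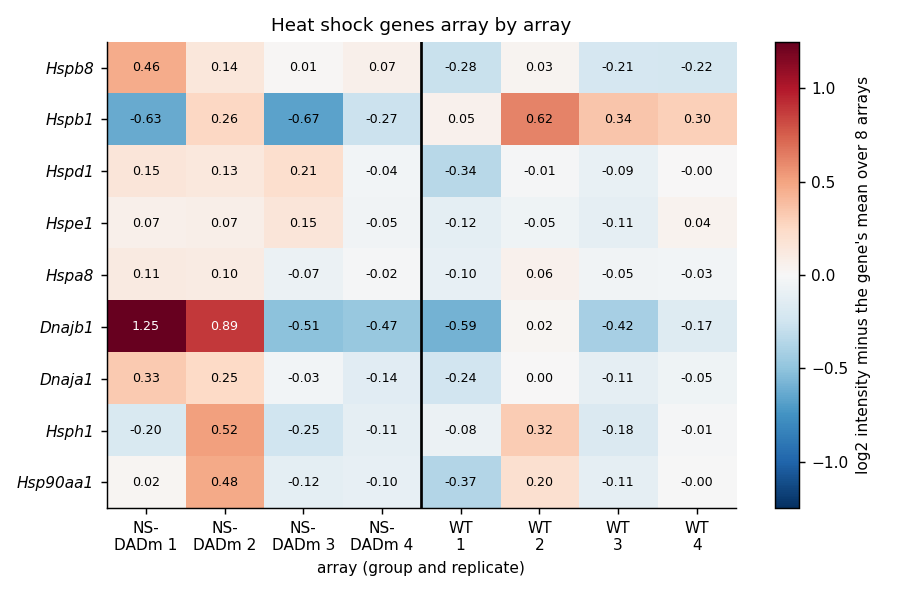
Log2 intensity of each heat shock gene (rows) minus its mean over the 8 arrays (columns, NS-DADm left of the line and WT right of it), with red above and blue below the mean. NS-DADm array 2 is above the mean in 9 of the 9 genes and WT array 1 is the lowest array in 7.

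The genes outside the set whose values over the 8 arrays were most like that average were Nop2 (r = 0.97), Mx2 (0.96), Mis12 (0.96), Srp68 (0.95) and Rab6a (0.95). Predicted and clone names (Gm with a digit, LOC and Rik) were left out of this ranking. Nop2, which encodes a nucleolar RNA methyltransferase, had 9.41, 9.44, 9.10 and 9.04 on NS-DADm arrays, and 8.997, 9.35, 9.02 and 9.19 on WT arrays. NS-DADm arrays 1 and 2 and WT array 2 were its 3 highest arrays, and its difference was 0.11 with a limma adjusted p of 0.889. Of the 9 genes themselves, which are part of the average, Hspa8 had the highest r, 0.95, and Hspb1 the lowest, 0.21. With 8 arrays and 19935 genes these likenesses are a description. They are likenesses to an average in which genes with a wide spread, such as Dnajb1, weigh more.

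The wider chaperone lists held 121 genes besides the set, of which 117 were measured. None passed the adjusted test. An unadjusted p under 0.05 was found for 11 of the 117, which is close to the 9.33% of all genes. Of the 117 differences 70 were above 0 and 47 below 0, with a median of 0.02, against -0.01 for all genes. That median was -0.0001 without WT array 1 and 0.039 without WT array 2. The count of 11 was 5 without NS-DADm array 1, 18 without NS-DADm array 4, and 7 without NS-DADm array 3 or WT array 3. The share of all genes at an unadjusted p under 0.05 was not counted in those settings. The groups did not overlap for 6 of the 117 genes, or 5.13%, against 5.63% of all genes, so this share is near the background. Among the 6, Cct5 and Clpx had higher values in NS-DADm livers. Cdc37l1, Dnajb14, Bag6 and, named after its values were seen, Sil1 had lower values there.

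The other HSP70 and HSP110 genes included Hspa1a, the classic heat-induced HSP70, with 8.62, 9.70, 8.64 and 8.75 on NS-DADm arrays and 8.29, 8.69, 8.43 and 8.76 on WT arrays. NS-DADm array 2 stood alone above the rest, and the difference was 0.38 with an adjusted p of 0.649. Hspa1a has a near-identical neighbour, so its signal may hold both. Hspa4l, an HSP110 relative, had a difference of 0.28 with an adjusted p of 0.613. Of the 9 measured genes of this list 7 were above 0, with a median of 0.03 and none at an unadjusted p under 0.05.

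Among the HSP90 cochaperones, Fkbp5, a peptidyl-prolyl isomerase that acts on steroid receptors with HSP90, had 9.86, 9.82, 9.71 and 9.39 on NS-DADm arrays, and 10.08, 10.25, 10.19 and 9.83 on WT arrays. The groups overlapped only through NS-DADm array 1 and WT array 4. Its difference was -0.39 with an SE of 0.11 and an adjusted p of 0.277. Cdc37l1, a relative of the kinase cochaperone CDC37, had 9.46, 9.50, 9.68 and 9.50 on NS-DADm arrays, all below the 9.71, 9.74, 9.70 and 9.72 on WT arrays. Its difference was -0.18 with an adjusted p of 0.345. The list of HSP90 genes and cochaperones had 8 of 14 genes above 0 and a median of 0.01.

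Of the 24 other J-domain genes 9 were above 0 and 15 below 0, with a median of -0.01. They ran from Dnajb14, at -0.16, to Dnajb4, at 0.14. The 8 other small heat shock genes were divided evenly, 4 above 0 and 4 below 0, from Cryab (alpha-B crystallin) at -0.20 to Hspb9 at 0.13. Of the 7 BAG and other exchange factors 5 were above 0, and Bag6, a holdase for membrane proteins, had a difference of -0.13 with an adjusted p of 0.454.

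The chaperonin CCT and prefoldin, which fold actin and tubulin in the cytosol, had 12 of 14 genes above 0 and a median of 0.06. Cct5, a subunit of CCT, had 10.39, 10.34, 10.35 and 10.30 on NS-DADm arrays, all above the 10.16, 10.26, 10.05 and 10.27 on WT arrays. Its difference was 0.16 with an SE of 0.061 and an adjusted p of 0.429. The endoplasmic reticulum chaperones had 10 of 18 genes above 0 and a median of 0.01, from Sdf2l1 at -0.23 to Dnajc10 at 0.08.

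The other mitochondrial chaperones and proteases had 12 of 16 genes above 0 and a median of 0.04. Clpx, the unfoldase of the mitochondrial ClpXP protease, had 9.97, 9.81, 10.05 and 9.91 on NS-DADm arrays, each above the 9.41, 9.64, 9.57 and 9.80 on WT arrays. Its difference was 0.33 with an SE of 0.085 and an adjusted p of 0.202. Of the heat shock factors other than Hsf1 and their regulators, Hsf2 had a difference of -0.23 with an adjusted p of 0.498 and Hsf4 one of -0.07. In that list 3 genes were below 0 and 1, Hsf2bp at 0.06, was above 0. Of the 15 measured genes in a list of stress-inducible HSF1 targets, which shares genes with the lists above, 12 were above 0, with a median of 0.06 and 1 at an unadjusted p under 0.05.

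**Figure D5:**
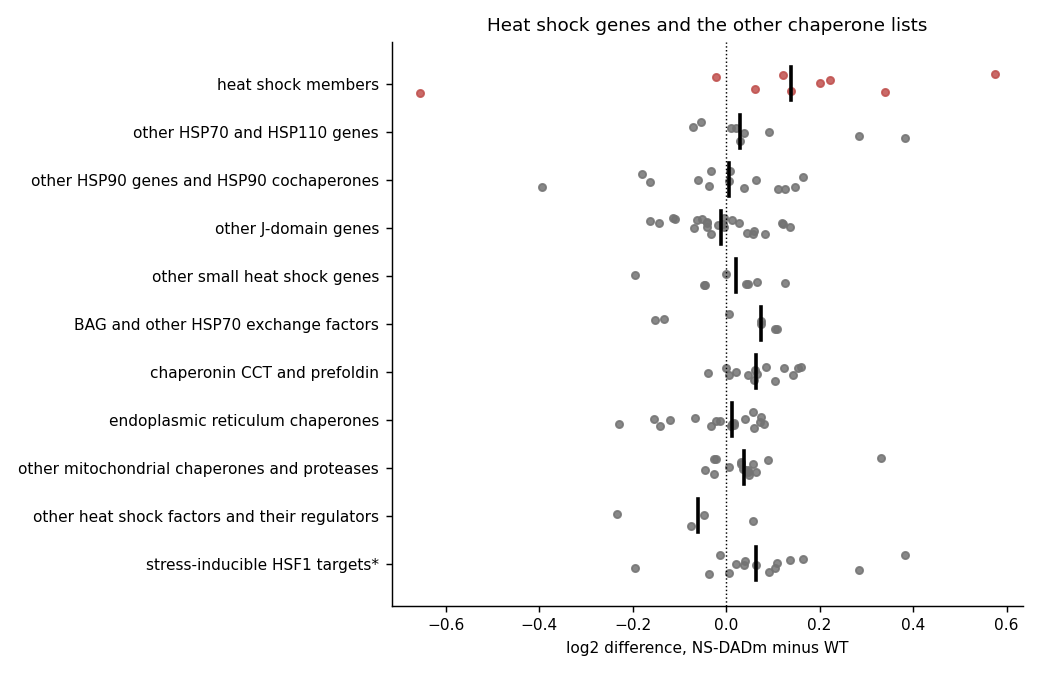
Log2 difference, NS-DADm minus WT, of each gene in the heat shock set (red) and in the other chaperone lists (grey), with the median of each list as a bar; the list with an asterisk shares genes with the lists above it. The set has a median of 0.14 and reaches from -0.65 to 0.57, and the medians of the other lists lie between -0.06 and 0.08.

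Hepatocyte markers were high on all arrays. Their summed level, as log2 of summed linear intensity, was 16.47 to 16.50 in NS-DADm livers and 16.52 to 16.53 in WT livers, without overlap. Of 8 hepatocyte markers 4 were above 0 and 4 below 0, with a median of 0.0010. Tat, the tyrosine-degrading aminotransferase, at -0.20 (limma adjusted p = 0.427), and Serpina1c, an alpha-1 antitrypsin gene, at -0.09 (adjusted p = 0.613), were the 2 whose groups did not overlap. Over all genes, groups did not overlap in 5.63%. Alb, at 13.97 in NS-DADm and 13.96 in WT livers, was near the highest value of all probe sets, 14.37. Whether levels that high are compressed was not tested. Of 8 sinusoidal endothelial markers 8 had differences below 0, with a median of -0.31. None passed the adjusted test, and 7 of the 8 had an unadjusted p under 0.05, against 9.33% of all genes. Their summed level was 12.35 to 12.96 in NS-DADm livers and 12.86 to 13.07 in WT livers. Of 8 Kupffer cell markers 7 were above 0, with a median of 0.08 and none at an unadjusted p under 0.05. Their sums were 11.72 to 12.79 in NS-DADm livers and 11.79 to 12.50 in WT livers. Of 8 stellate and fibroblast markers 2 were above 0, with a median of -0.05 and 1 at an unadjusted p under 0.05. Their sums were 12.43 to 13.11 in NS-DADm livers and 12.72 to 12.95 in WT livers. Of 8 neutrophil markers 8 were above 0, with a median of 0.11 and sums of 9.53 to 9.68 in NS-DADm livers and 9.41 to 9.58 in WT livers. Their group means, from 5.35 (Ngp in WT) to 7.40 (Elane in NS-DADm), were all below the median level of all genes, 7.59. Whether such low values carry neutrophil signal could not be judged without detection calls. Alas2, the heme synthesis enzyme of red cell precursors, had a difference of -0.51 with an adjusted p of 0.0707. Vsig4, a Kupffer cell marker, had 9.58, 9.93, 10.58 and 10.94 on NS-DADm arrays, and 10.32, 9.94, 9.53 and 10.66 on WT arrays. Cd5l, Timd4, Lrat, Reln and Col3a1 of the Kupffer and stellate lists also rose in order from NS-DADm array 1 to 4. Marco and Col1a1 did not, and the other markers of those lists are not described by array. For the rising markers, NS-DADm arrays 1 and 2, the highest for Dnajb1, were the lowest NS-DADm arrays. In whole liver, fewer cells of a type and less RNA per cell cannot be told apart, and the part of other cells in the values of Hspb1 and the other heat shock genes was not tested.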

How the data were processed

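RNA of 4 NS-DADm and 4 WT livers was measured on 1 array each. The authors deposited log2 values for 28270 probe sets. RMA and Partek made them per the submitters' processing notes, but no source used here gives their order, versions or settings. This log2 scale was read from the values (3.43 to 14.37), so folds hold only if that reading is right. The sources also give no detection calls, scan dates or batches. The number of arrays limits the precision.

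Probe sets were named from the platform annotation, updated through a table on GRCm38.p6. Of them 21780 named 1 gene, 1617 several and 4873 none, and 19852 of the 19935 genes matched by Entrez identifier. The probe set with the highest mean stood for a gene. limma 3.58.1 (R 4.3.3) was fitted to all genes with 2 groups, and p-values were adjusted by Benjamini-Hochberg with a threshold of 0.05. The fit was tested on simulated data.

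Correlations used exact permutation tests over samples, two-sided (Python 3.11.15, SciPy). Alternatives left out each array, added a replicate block, array weights or a filter on low values, centred array medians or used another probe set rule. The members and lists were chosen with earlier results of these data known. Genes were named by rule, and every member was named. In each chaperone list, genes were named from among the 2 highest and 2 lowest differences, and not all of these are described. Any gene past the threshold would also have been named. The 5 genes most like the members' average were named, with predicted and clone names left out. Of marker lists, the summed levels and members farthest from 0 were used.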

Additional observations from a re-analysis of the deposited data

How the results depend on the processing

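None of the 9 heat shock genes and none of the 117 wider chaperone genes passed the limma test with any of the 8 arrays left out (0 to 0 for both). The same held with quantile normalization, array medians subtracted, array weights, trended and robust variances, other rules for probe sets, only genes at or above the median level, and no shared variances. The last test called 0 of 19935 genes, array weights called 109 and the limma test 54. Without NS-DADm replicate 4 it called 126, without WT replicate 2 it called 13, and without WT replicate 3 it called 22. With a replicate block 1 heat shock gene passed, Hspb1 at -0.65 with an adjusted p of 0.0337, and 1 wider chaperone gene, Fkbp5, among 105 genes in all. The replicate numbers do not pair the samples by their labels, and same-numbered arrays had deviations correlated at 0.15, 0.05, -0.10 and 0.25. The difference of Hsph1 changed sign, to 0.073 with array weights, to 0.039, 0.058 and 0.012 without NS-DADm replicates 1, 3 and 4, and to 0.080 without WT replicate 2, and it ranged from -0.20 to 0.080. The other 8 genes kept their sign in every alternative. With group means subtracted, the correlation of Hspb1 and Hspb8 was 0.087. The causes of these changes were not tested. The median of the 9 genes was 0.21 with array weights, which gave 5 of them an unadjusted p under 0.05. The share of all genes at that p was not counted with array weights. Hspb1 ranged from -0.85 to -0.54, Dnajb1 from 0.25 to 0.84 and Hspb8 from 0.24 to 0.41. Signal over background could not be judged without detection calls.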
